A study of Mus musculus with 16 samples.

Results

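The set described here is 10 genes, the cytosolic heat shock genes Hspa1a, Hspa1b, Hspa8, Hsph1, Hsp90aa1, Dnajb1, Hspb1, and Bag3, and the mitochondrial pair Hspd1 and Hspe1. They were taken by name, 10 of 24421 rows of the count table, and all 10 passed the filter on low counts among 14565 genes that did. RNA was sequenced from CD11b+ cells of the brains of female C57BL/6J mice put on their diets at weaning, with 1 library per mouse. CON mice (n = 4) ate standard chow and MAL mice (n = 5) ate an isocaloric diet low in protein and fat, each for about 1 month. MAL-BG mice (n = 7) ate the MAL diet and were also gavaged with a mix of E. coli and Bacteroidales species, while CON and MAL mice were gavaged with saline. No group received the bacteria on the standard diet, so the bacteria can be compared only on the MAL background. CD11b is an integrin subunit on microglia and other myeloid cells, and cells carrying it were held on a magnetic column after the brain was dissociated with enzymes at warm temperature. The methods of the study name whole cerebra and the labels name cortex as the tissue.

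Heat shock proteins are chaperones, which bind unfolded proteins and help them fold, refold, or be degraded. In the cytosol, HSP70 proteins work in a cycle that is started by a J-domain protein such as DNAJB1 and reset by an exchange factor such as HSPH1 or BAG3, and HSP90 takes over some of their clients. In mitochondria, HSPD1 forms a folding chamber that HSPE1 closes as its lid. The transcription factor HSF1 switches many of these genes on under heat, oxidants, and other protein-damaging stress, and in brain tissue the dissociation into single cells is itself known to induce some of them.

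The libraries held between 10312703 and 18705202 counts, with every MAL-BG library (14191791 or more) above every CON and MAL library (13461574 or less). The 12 microglia markers stood at a summed level of 18360 to 30058 CPM (counts relative to the TMM-scaled library size) in CON, 19026 to 32465 in MAL, and 39658 to 55560 in MAL-BG, where 8 of 12 were called higher in each comparison. Other marker lists differed as well between the groups. The 16 early response genes, which cells switch on within minutes of disturbance, summed to 24284 to 48359 CPM in CON, 26242 to 55257 in MAL, and 12536 to 33681 in MAL-BG, where 8 were called lower against CON and 11 against MAL. Choroid plexus markers summed to 13929 to 54104, 6466 to 42503, and 1775 to 16592 CPM, and astrocyte markers to 684 to 1702, 577 to 1580, and 341 to 852 CPM, with 10 and 9 of 10 and with 6 and 6 of 10 called lower. The choroid plexus sum, of which Ttr made up the most, was above the microglia sum in 6 of the 9 CON and MAL libraries and in 0 of the 7 MAL-BG libraries. In those 6 the marker sums alone do not plainly bear out the labelled cell type. Sums of different genes do not measure shares of cells, and the study reports from flow cytometry that most cells of its CD11b+ samples were microglia. Neutrophil markers summed to 484 to 1225 CPM in CON, 521 to 1091 in MAL, and 590 to 13568 in MAL-BG, with 9 of 10 called higher. The 4 hemoglobin genes, which mark red blood cells, were listed at 0 in the 16 libraries. Fewer cells of a type and less RNA per cell cannot be told apart in such samples, and the part of these shifts in the values given for the heat shock genes was not tested.

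The heat shock genes did not move together. In MAL-BG compared to CON, Hspa1b and Hsp90aa1 were DEGs with a higher level and Hsph1 a DEG with a lower level, where a DEG has an adjusted p under 0.05 in edgeR's quasi-likelihood test and an absolute log2 fold change above 0.58. Of all 14565 genes tested, 11.4% were called higher and 21.7% lower in that comparison, so 2 higher and 1 lower of 10 is a share near that of all genes. In MAL-BG compared to MAL, Hspa1a, Hspa1b, and Hsp90aa1 were higher and Hsph1 and Dnajb1 were lower, 3 and 2 of 10 against 10.2% and 20.2% of all genes. Between MAL and CON 0 of the 10 were called, with 0 at an unadjusted p under 0.05, and edgeR and DESeq2 called 0 of all genes, with 212 of 14565 genes (1.46%) at an unadjusted p under 0.05 in edgeR. The same 7 MAL-BG libraries stand in both comparisons, so the calls against CON and against MAL are not independent of each other. Without MAL-BG 5, the library with the most neutrophil marker RNA (13568 CPM), 2 genes were called against CON, Hspa1b no longer among them, and 5 against MAL. Without CON 1, 4 were called against CON, Hspa1a now among them.

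**Figure D1:**
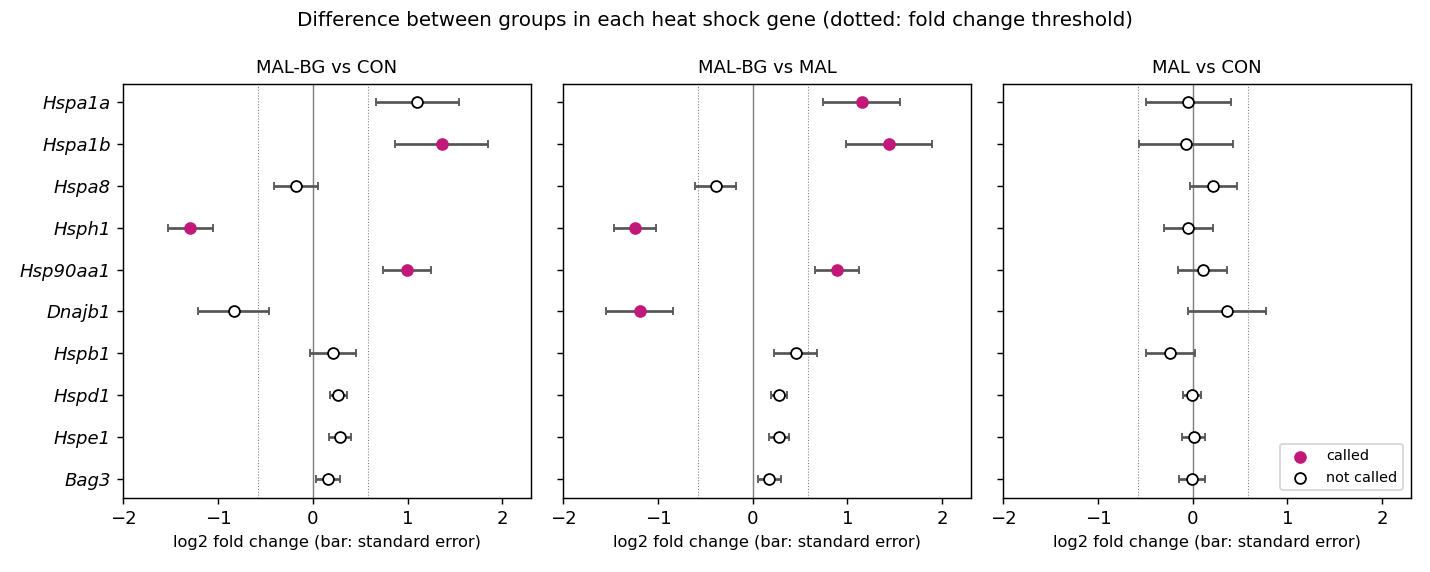
Log2 fold changes of the 10 genes in 3 comparisons (x axis, log2 scale), with bars for the standard error from edgeR and dotted lines at 0.58 on both sides of 0. Filled points passed both thresholds: 3 genes in MAL-BG versus CON, 5 in MAL-BG versus MAL, and 0 in MAL versus CON.

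Divided by the length of the longest protein-coding transcript, the levels in CON spanned from 16.2 CPM per kb for Bag3 to 279 for Hspa8, the constitutive HSP70. Hsp90aa1 followed at 98.9 CPM per kb, then Hspa1a at 71.7, Hspa1b at 67.0, Dnajb1 at 64.7, Hspe1 at 59.1, Hspb1 at 46.4, Hspd1 at 30.9, and Hsph1 at 24.3. Hspa1a and Hspa1b varied so much over the CON mice (213 ± 164 and 188 ± 154 CPM, SD, n = 4) that their place among these neighbors cannot be fixed. In MAL-BG the levels per length were 247 for Hspa8, 197 for Hsp90aa1, 172 for Hspa1b, and 154 for Hspa1a, and lower down 72.0 for Hspe1, 53.8 for Hspb1, 37.2 for Hspd1, 36.2 for Dnajb1, 18.2 for Bag3, and 9.91 for Hsph1. By these means the inducible HSP70 genes stood beside Hsp90aa1 in MAL-BG, while Dnajb1 stood level with Hspd1 and Hsph1 was last of the set. The MAL-BG libraries spanned 58.8 to 265 CPM per kb in Hspa1a, 60.3 to 355 in Hspa1b, and 13.3 to 89.0 in Dnajb1. The places of these 3 genes in MAL-BG cannot be fixed either. Many of these genes have close copies in the genome, which bears on such levels. The share of 42-base windows of the transcript that also occur in another gene was 76.7% in Hspa8, 68% in Hspa1a, and 64.6% in Hspa1b. It was 60.2% in Hsp90aa1, 54.2% in Hspb1, 50.2% in Hspe1, and 48.5% in Hspd1, against 0.745% in Dnajb1 and 0% in Hsph1 and Bag3.

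**Figure D2:**
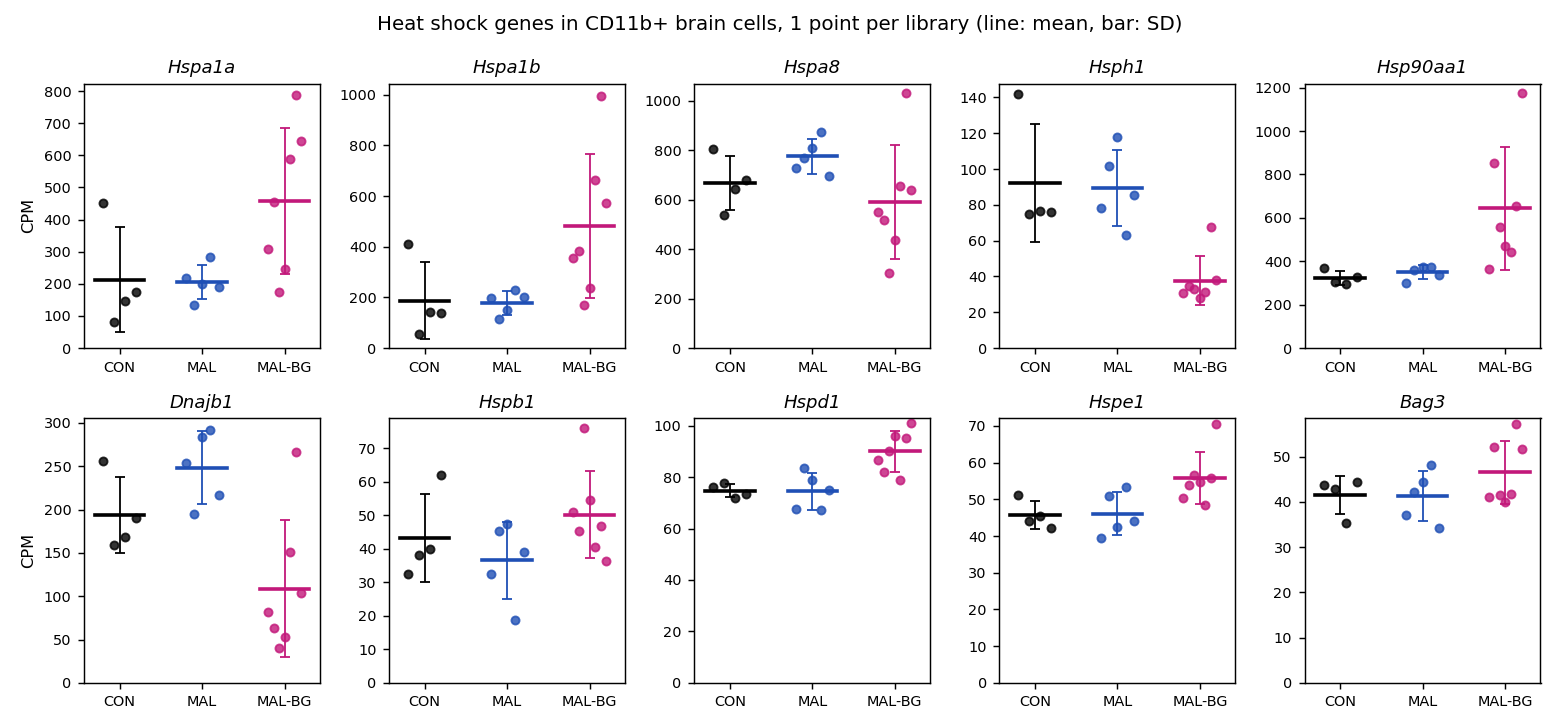
CPM of the 10 genes (y axis, each panel with its own scale from 0) in the 7 MAL-BG, 5 MAL, and 4 CON libraries, with 1 point per library, a line at the mean, and a bar for the SD. In Hsp90aa1, 6 of the 7 MAL-BG points lie above every other point, in Dnajb1 6 of the 7 lie below every other point, in Hsph1 MAL-BG 6 alone overlaps with MAL, and the CON and MAL points overlap in each panel.

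Hspa1a and Hspa1b encode the stress-inducible HSP70, which is nearly absent from many resting cells and rises steeply under stress. The genes lie 9951 bases apart on the minus strand of chromosome 17 (GENCODE M21, GRCm38), Hspa1b at chr17:34956436-34959238 and Hspa1a at chr17:34969190-34972156. Each is a single exon, and 60.8% of the 42-base windows of Hspa1a occur in Hspa1b, so reads can be exchanged between them and neither value is sure on its own. A gene on the opposite strand, Gm20481, overlaps Hspa1a, and the strand setting of the counting is not given in the sources used here. The 250 bases before the RefSeq start (GRCm38.p6, minus strand), at chr17:34972157-34972406 and chr17:34959239-34959488, are shown because the genes varied as a pair. The capitals mark a pair of heat shock element units, the inverted repeats that HSF1 binds, spelled here as GAANNTTC or TTCNNGAA.
Hspa1a: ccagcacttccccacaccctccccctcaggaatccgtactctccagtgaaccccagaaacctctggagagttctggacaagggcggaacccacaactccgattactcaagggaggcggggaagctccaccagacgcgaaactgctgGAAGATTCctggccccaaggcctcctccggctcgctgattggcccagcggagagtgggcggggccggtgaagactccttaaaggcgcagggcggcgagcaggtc
Hspa1b: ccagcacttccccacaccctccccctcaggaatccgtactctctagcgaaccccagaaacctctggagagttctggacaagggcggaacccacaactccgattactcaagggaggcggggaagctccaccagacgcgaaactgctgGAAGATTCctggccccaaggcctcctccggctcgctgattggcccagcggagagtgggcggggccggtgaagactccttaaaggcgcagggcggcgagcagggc
The windows are identical at 247 of 250 bases and hold the same match 104 bases before the start. Such a pair occurs in the 250 bases upstream of 12.8% of 32851 RefSeq starts.

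Hspa1a was measured at 451, 80.8, 146, and 174 CPM in the CON libraries, in the order of their numbers. In MAL it was 219, 136, 201, 284, and 191 CPM, and in MAL-BG 310, 454, 174, 245, 590, 786, and 644 CPM. In MAL-BG, 4 of the 7 libraries lay above the highest CON library, CON 1, and 5 lay above every MAL library. The level was 2.15-fold higher in MAL-BG than in CON (log2 fold change 1.10, SE 0.440), with an adjusted p of 0.05001 in edgeR that fell just short of the threshold. Against MAL it was 2.22-fold higher (log2 fold change 1.15, SE 0.407, edgeR adjusted p = 0.0299) and was called. CON 1 also had the highest early response sum (48359 CPM) and microglia sum (30058 CPM) of CON, and the lowest choroid plexus sum (13929 CPM). The lowest Hspa1a library of each group (CON 2, MAL 2, and MAL-BG 3) had the highest choroid plexus sum of its group. The highest Hspa1a library had the lowest such sum in CON and MAL but not in MAL-BG. The part of these sums in Hspa1a was not tested. Without CON 1 the difference from CON was 1.77 on the log2 scale and passed (edgeR adjusted p = 0.00332), as it did without MAL-BG 1, 3, or 4. DESeq2 with all libraries called the gene too (adjusted p = 0.0181). Against MAL, the call was lost without MAL 1, 2, 3, or 5, or MAL-BG 6 or 7, with a log2 fold change of 0.97 to 1.30 over all single libraries left out.

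Hspa1b ordered the libraries much like Hspa1a, from 57.4 to 410 CPM in CON (median 142), 113 to 230 in MAL (median 199), and 169 to 996 in MAL-BG (median 385). The group ranges overlapped, and MAL-BG 3 and 4 were the low libraries of MAL-BG in both genes. It was 2.57-fold higher in MAL-BG than in CON (log2 fold change 1.36, SE 0.493, edgeR adjusted p = 0.0329) and 2.71-fold higher than in MAL (1.44, SE 0.455, edgeR adjusted p = 0.0173). The call against CON was lost without CON 2, 3, or 4, without MAL-BG 5, 6, or 7, and in a fit of these groups alone (edgeR adjusted p = 0.0643). The log2 fold change without CON 1 was 2.08 and without CON 2 was 1.06. Against MAL the call was kept with each library left out (log2 fold change 1.15 to 1.60).

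Hspa8 encodes HSC70, the HSP70 that cells make at all times. Its gene at chr9:40800984-40810087 (plus strand) also holds the small nucleolar RNAs Snord14c, Snord14d, and Snord14e, and its RefSeq promoter was not in the table used. In CON it was measured at 806, 540, 645, and 679 CPM and in MAL at 728, 767, 810, 873, and 696 CPM. MAL-BG libraries spanned from 305 to 1032 CPM (median 549), so that they enclosed the range of both other groups. The log2 fold change was -0.18 (SE 0.229, edgeR adjusted p = 0.553) against CON and -0.39 (SE 0.214, edgeR adjusted p = 0.145) against MAL. MAL-BG 6 was the highest library of all, and without it the difference from MAL was -0.58 and was called (edgeR adjusted p = 0.0104).

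The balance of inducible to constitutive HSP70 within a library does not depend on how libraries are scaled. Counts of Hspa1a plus Hspa1b were 0.256 to 1.07 times those of Hspa8 in CON, 0.324 to 0.588 times in MAL, and 1.11 to 1.91 times in the 7 MAL-BG mice. These 7 stood above all 9 other libraries, and in each of them, as in CON 1, counts of the inducible genes together exceeded those of Hspa8. Counts were not divided by length and these genes share sequence with other genes, so such counts do not rank transcript numbers. The geometric mean was 1.48 in MAL-BG, 0.488 in CON, and 0.484 in MAL. The difference was 1.60 on the log2 scale against CON (exact permutation test, two-sided, p = 0.00303, as low as 330 splits can give, adjusted p = 0.0182 over 12 ratio tests). Against MAL it was 1.61 (exact permutation test, p = 0.00126, as low as 792 splits can give, adjusted p = 0.0152), and between MAL and CON it was -0.01 (exact permutation test, p = 1). With medians in place of means the differences were 1.83 and 1.53, and neither passed after adjustment (exact permutation test, adjusted p = 0.145 and 0.182). Hspa1b over Hspa1a was 1.02 in MAL-BG, 0.846 in CON, and 0.863 in MAL, differences that did not pass (exact permutation test, adjusted p = 0.152 in both MAL-BG comparisons).

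**Figure D3:**
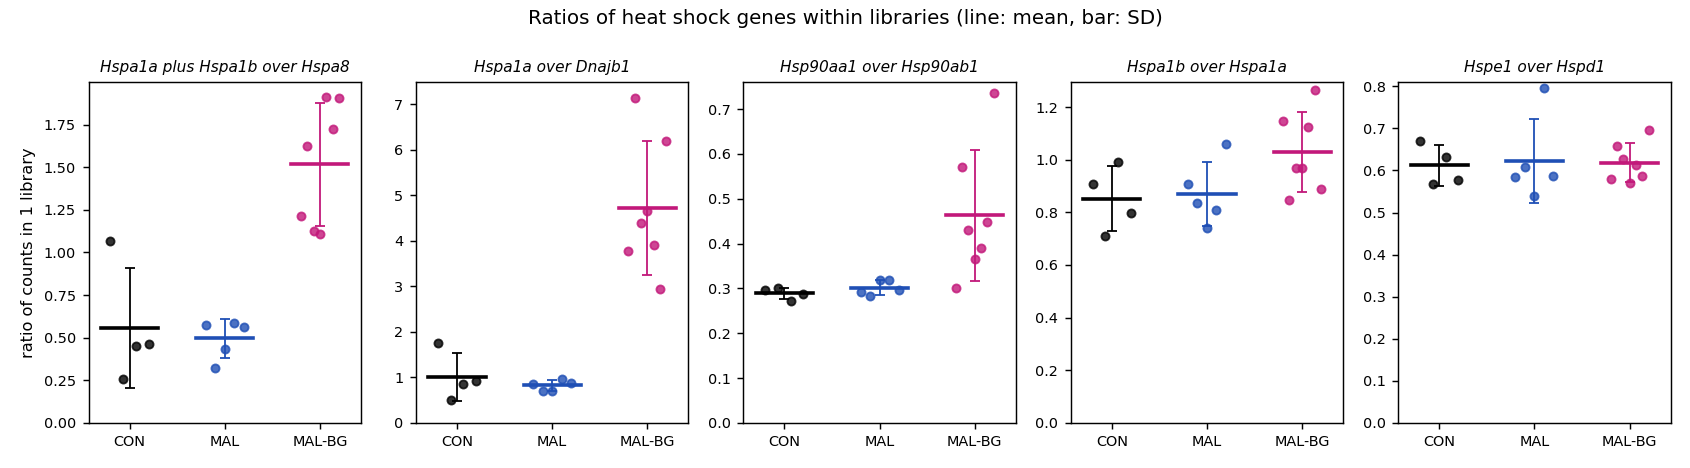
Ratios of counts of heat shock genes within each library (y axis, no unit, from 0) in 5 panels, with 1 point per library, a line at the mean, and a bar for the SD. In the ratio of Hspa1a plus Hspa1b to Hspa8 and in that of Hspa1a to Dnajb1, all 7 MAL-BG points lie above the 9 others, while Hspe1 over Hspd1 is at one level in the 3 groups.

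Hsp90aa1 encodes the stress-responsive form of cytosolic HSP90, which stabilizes kinases, receptors, and other signaling proteins. Its gene lies at chr12:110690605-110702728 on the minus strand, and its RefSeq promoter was not in the table used. In CON it was measured at 367, 304, 298, and 329 CPM and in MAL at 298, 362, 376, 372, and 336 CPM. MAL-BG libraries were at 362, 852, 559, 473, 442, 653, and 1174 CPM, so that 6 of 7 lay above every other library and only MAL-BG 1 fell among them. It was 1.99-fold higher than in CON (log2 fold change 0.99, SE 0.252, edgeR adjusted p = 0.00462) and 1.85-fold higher than in MAL (0.89, SE 0.232, edgeR adjusted p = 0.00569). Both calls were kept with each single library left out (log2 fold change 0.84 to 1.13 and 0.73 to 1.02). Both were lost when libraries were scaled to the microglia markers (log2 fold change 0.17 and 0.14, edgeR adjusted p = 0.612 and 0.649), a scaling that moved the median of all genes to -0.88 and -0.77 and under which no heat shock gene was called higher. The constitutive form, Hsp90ab1, was at 1354 ± 166 CPM (SD, n = 7) in MAL-BG, against 1122 ± 97.0 (SD, n = 4) in CON and 1156 ± 94.6 (SD, n = 5) in MAL, and was not called (edgeR adjusted p = 0.0741 and 0.104). Hsp90aa1 over Hsp90ab1 within libraries was 0.445 in MAL-BG, 0.289 in CON, and 0.301 in MAL. The differences, 0.62 and 0.56 on the log2 scale, did not pass after adjustment (exact permutation test, p = 0.0182 and 0.0126, adjusted p = 0.0545 and 0.0505).

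Dnajb1 encodes the main stress-inducible J-domain partner of HSP70 in the cytosol and is a known target of HSF1, so that it often rises with Hspa1a. In CON it was measured at 256, 160, 169, and 190 CPM, in MAL at 254, 195, 284, 292, and 217 CPM, and in MAL-BG at 82.2, 63.5, 39.8, 52.6, 151, 267, and 104 CPM. Of the 7 MAL-BG libraries, 6 lay below every CON and MAL library, and MAL-BG 6 stood above all CON libraries. The level in MAL-BG was 1.78-fold below CON, a difference that did not pass (log2 fold change -0.84, SE 0.376, edgeR adjusted p = 0.0802). It was 2.29-fold lower than in MAL (log2 fold change -1.19, SE 0.355, edgeR adjusted p = 0.0123). Without MAL-BG 6 the difference from CON was -1.24 and passed (edgeR adjusted p = 0.00238). Within libraries, counts of Hspa1a were 0.506 to 1.76 times those of Dnajb1 in CON and 0.696 to 0.972 times in MAL, and 2.95 to 7.15 times in MAL-BG. This ratio was chosen after its values were seen and is given without a test. The 250 bases before the RefSeq start of Dnajb1 at chr8:83607925-83608174 (plus strand) are shown beside those of Hspa1a and Hspa1b because they hold no match to the searched pair.
Dnajb1: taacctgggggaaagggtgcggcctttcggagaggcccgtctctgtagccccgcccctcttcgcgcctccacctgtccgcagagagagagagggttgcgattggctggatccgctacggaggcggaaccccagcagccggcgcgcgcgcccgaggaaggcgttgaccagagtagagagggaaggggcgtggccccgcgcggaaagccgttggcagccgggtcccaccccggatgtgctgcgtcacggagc
The absence of a match says only that these letters are not in this window.

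Hsph1 encodes HSP110 (HSP105), the exchange factor that frees HSP70 from its nucleotide and keeps aggregated proteins soluble. Its gene lies at chr5:149614287-149636376 on the minus strand. It was the only one of the 10 genes called lower in both comparisons. In CON it was measured at 142, 75.0, 76.4, and 76.2 CPM, in MAL at 78.5, 102, 118, 63.1, and 85.4 CPM, and in MAL-BG at 30.6, 34.8, 33.2, 28.2, 31.4, 67.5, and 38.1 CPM. No MAL-BG library reached the CON range, as in 11.1% of all genes tested, and MAL-BG 6 alone overlapped with MAL. Hsph1 was 2.45-fold lower than in CON (log2 fold change -1.29, SE 0.237, edgeR adjusted p = 4.86e-04) and 2.37-fold lower than in MAL (log2 fold change -1.25, SE 0.225, edgeR adjusted p = 4.53e-04). Both calls were kept with each library left out in turn and in the 10 other settings tried. Around a RefSeq start of Hsph1 at position 149636315 are 2 matches to heat shock element units (GRCm38.p6, minus strand). They lie at chr5:149636356-149636375 and chr5:149636282-149636306, shown in capitals with 6 bases on each side. The first begins 54 bases before that start and 33 bases before another RefSeq start at position 149636336. The second lies after both starts, and both matches lie within the gene body given above.
Hsph1, upstream: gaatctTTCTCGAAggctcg
Hsph1, after the start: tgcagaTTCTGGAAAGTTCtcctca
The second holds 3 alternating units, TTC and GAA each 2 bases apart. Such a triple, in either order, lies in 0.603% of 300-base windows around RefSeq starts, while 15.1% hold a pair.

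Bag3 encodes a HSP70 exchange factor that routes damaged proteins to autophagy, and lies at chr7:128523616-128546981 on the plus strand with 2610306O10Rik on the same strand within it. It was measured at 35.3 to 44.4 CPM in CON (median 43.3), 34.3 to 48.0 in MAL (median 42.2), and 40.0 to 57.3 in MAL-BG (median 41.7). The groups overlapped, and the log2 fold change of MAL-BG was 0.16 (SE 0.128, edgeR adjusted p = 0.319) against CON and 0.17 (SE 0.120, edgeR adjusted p = 0.248) against MAL. Hspb1 encodes HSP27 (HSP25 in mouse), a small heat shock protein that holds unfolded proteins without ATP, and lies at chr5:135887919-135889563 on the plus strand. It was measured at 32.4 to 62.1 CPM in CON (median 39.0), 18.8 to 47.3 in MAL (median 39.2), and 36.4 to 76.0 in MAL-BG (median 46.8). The groups overlapped in Hspb1 too, at a log2 fold change of 0.21 (SE 0.242, edgeR adjusted p = 0.490) and 0.45 (SE 0.227, edgeR adjusted p = 0.113). Without MAL-BG 7 the latter was 0.582 and was called (edgeR adjusted p = 0.0477). MAL-BG 3, the lowest MAL-BG library in Hspa1a, Hspa8, and Dnajb1, was the highest in Hspb1.

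Hspd1 and Hspe1 encode HSP60 and HSP10, the chamber and the lid of the mitochondrial chaperonin. The genes stand head to head on chromosome 1, Hspd1 on the minus strand (chr1:55077835-55088243) and Hspe1 on the plus strand (chr1:55088132-55091307), with gene bodies that overlap by 112 bases. Before the RefSeq start of Hspe1, at chr1:55088053-55088082 (GRCm38.p6, plus strand), is a run of heat shock element units, in capitals with 6 bases on each side. It lies within the Hspd1 gene body, upstream of another RefSeq start of Hspd1 at position 55087932, while the window around the Hspd1 start at 55088243 holds 0 pairs.
Hspd1 and Hspe1: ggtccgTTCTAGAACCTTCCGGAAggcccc
Hspd1 was measured at 71.9 to 77.6 CPM in CON, 67.1 to 83.6 in MAL, and 78.8 to 101 in MAL-BG. The CON range ended below the lowest MAL-BG library, as in 9.83% of all genes tested, while the ranges of MAL-BG and MAL overlapped. The log2 fold change was 0.27 in both comparisons (SE 0.0923 and 0.0860), with an edgeR adjusted p of 0.0258 and 0.0162, so that it passed the p threshold alone and was no DEG. An adjusted p under 0.05 at any fold change was reached by 45.1% of all genes against CON and 44.3% against MAL. Hspe1 was measured at 42.3 to 51.1 CPM in CON, 39.6 to 53.4 in MAL, and 48.3 to 70.5 in MAL-BG. Its difference was 0.29 on the log2 scale (SE 0.115, edgeR adjusted p = 0.0521) against CON and 0.27 (SE 0.107, edgeR adjusted p = 0.0463) against MAL, and it was not called in either. Hspe1 over Hspd1 within libraries was 0.617 in MAL-BG, 0.610 in CON, and 0.617 in MAL (exact permutation test, adjusted p = 1 in each comparison).

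Between MAL and CON, the log2 fold changes of the 10 genes ran from -0.24 (Hspb1) to 0.36 (Dnajb1), and the adjusted p was 0.999 for each in edgeR. The standard errors show how wide these estimates were, from 0.0981 for Hspd1 to 0.499 for Hspa1b.

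Within their groups, the libraries differed in a shared order for some of the genes. After the mean of each group was taken away, Hspa1a and Hspa1b had r = 0.973 and rho = 0.909 over the 16 libraries (permutation test within groups, adjusted p = 4.50e-04 and 0.00450 over 45 pairs). Hspa8 and Dnajb1 had r = 0.948 and rho = 0.915 (permutation test, adjusted p = 4.50e-04 and 0.00405). Hspa1a and Dnajb1 had r = 0.788 and rho = 0.847 (permutation test, adjusted p = 0.00150 and 0.00825), although MAL-BG stood higher in Hspa1a and lower in Dnajb1 than MAL. A library of MAL-BG with much Hspa1a was therefore also one with much Dnajb1 for its group (r = 0.887 within the 7 MAL-BG libraries). Without the 2 libraries farthest from the median of the gene named before the other, r was 0.953, 0.865, and 0.765 for these pairs. Hspb1 ran the other way from Hspa1a (r = -0.58, rho = -0.61), which did not pass after adjustment (permutation test, adjusted p = 0.0765 and 0.0825). The libraries share their depth and cell makeup across genes, Hspa1a and Hspa1b also share sequence, and what sets the shared order was not tested.

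**Figure D4:**
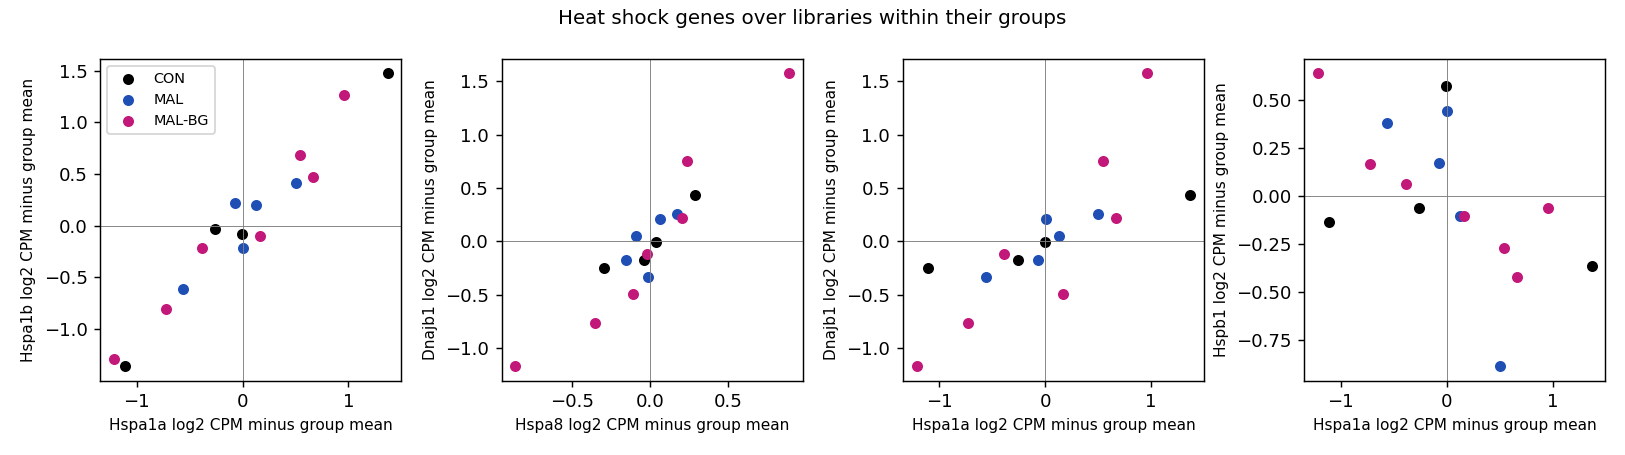
Log2 CPM minus the mean of its group for 4 pairs of heat shock genes (both axes on the log2 scale), with 1 point per library and a color per group. Points rise together for Hspa1a with Hspa1b (r = 0.973), Hspa8 with Dnajb1 (r = 0.948), and Hspa1a with Dnajb1 (r = 0.788), and slope down for Hspa1a with Hspb1 (r = -0.58).

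The wider chaperone network was read from 8 lists with 80 genes, all of which passed the filter. Against CON 3 of the 80 were higher and 12 lower in MAL-BG, and against MAL 3 were higher and 13 lower. Against CON that is 18.8% of the 80 genes, compared to 33.1% of all genes tested, and against MAL it is 20%, compared to 30.4% of all genes. The median log2 difference over the 80 genes was 0.03 and 0.07 (all genes, -0.04 and -0.03). The lists with the most calls were the other HSP70 and HSP110 genes, the J-domain proteins, and the other small heat shock proteins. In the first and the last of these, 50% were called in both comparisons. Of the J-domain genes 33.3% were called against CON, near the share of all genes, and 41.7% against MAL.

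Of 8 other HSP70 and HSP110 genes, 4 were lower in both comparisons and 0 were higher. Of all genes tested, 21.7% were called lower against CON and 20.2% against MAL. Hspa1l, the third gene of the HSP70 cluster on chromosome 17, fell from 2.88 ± 0.952 CPM (SD, n = 4) in CON to 0.724 ± 0.473 (SD, n = 7) in MAL-BG, with log2 fold changes of -1.996 and -1.81 (edgeR adjusted p = 0.00372 and 0.00540). Hspa4l, a relative of Hsph1 in the HSP110 family, had 23.4 ± 3.29 CPM (SD, n = 4) in CON and 7.72 ± 1.74 (SD, n = 7) in MAL-BG, at -1.60 and -1.62 (edgeR adjusted p = 9.67e-05 and 6.01e-05). Hspa2, an HSP70 best known from the testis, was at -1.10 and -1.05 (edgeR adjusted p = 0.00155 and 0.00153). Against MAL, Hsph1 and its relative Hspa4l were thus called lower and the inducible HSP70 genes Hspa1a and Hspa1b higher.

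Of 12 J-domain genes, 1 was higher and 3 lower against CON, and 1 higher and 4 lower against MAL. The counts against CON are near the shares of all genes, 11.4% higher and 21.7% lower. Against MAL, 10.2% of all genes were called higher and 20.2% lower. Dnajb4, a close relative of Dnajb1, fell from 84.1 ± 10.2 CPM (SD, n = 4) to 28.6 ± 7.59 (SD, n = 7), at -1.55 and -1.40 (edgeR adjusted p = 1.50e-05 and 2.51e-05). Dnaja4 was at -1.12 and -0.86, and Dnajc13, a J-domain protein of endosomes, was at -0.80 and -0.76. With offsets for length and GC content, added after seeing the data, Dnajc13 was at -0.45 and -0.39 and was not called. Of 6 other small heat shock proteins, 3 were lower in both comparisons (all genes, 21.7% and 20.2% lower). Hspb8, the partner of BAG3, was at -1.72 and -1.36, Hspb6 at -1.51 and -0.94, and Cryab, the lens protein that glia also make, at -1.34 and -0.95 (edgeR adjusted p between 0.00204 and 0.0470 for these 3 genes). Astrocyte markers were lower in MAL-BG as well, 6 of 10 in each comparison, and their part in the values of the small heat shock proteins was not tested. The calls of Hspb8, Hspb6, and Cryab against MAL were lost without 2, 6, and 10 of the 16 single libraries, for Hspb8 without MAL 2 or 3 (edgeR adjusted p = 0.0706 and 0.0582). That of Cryab was also lost with DESeq2's size factors (edgeR adjusted p = 0.0502) and without the filter (edgeR adjusted p = 0.0531).

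The remaining lists held few calls. Of 5 heat shock factors and regulators, edgeR and DESeq2 called 0 in both comparisons, with 2 and 0 at an unadjusted p under 0.05 in edgeR. Hsf1 itself was at 43.9 ± 12.2 CPM (SD, n = 7) in MAL-BG, against 59.6 ± 15.4 (SD, n = 4) in CON and 56.2 ± 3.03 (SD, n = 5) in MAL. Of 13 HSP90 genes and cochaperones, Tsc1 alone was called, at -0.67 and -0.68 (edgeR adjusted p = 0.00131 and 7.68e-04). Both calls were lost with the length and GC offsets (-0.32 and -0.33), and that against CON without CON 1 (-0.52). Of 8 BAG and ligase genes, Bag2 was lower (-0.87 and -0.69) and Stub1, the ubiquitin ligase CHIP that marks HSP70 clients for degradation, was higher (0.61 and 0.73, edgeR adjusted p = 0.0288 and 0.00795). The Bag2 call against MAL was lost without any of 8 of the 16 single libraries, without the filter (edgeR adjusted p = 0.0541), and with libraries thinned to the smallest total (edgeR adjusted p = 0.0646). The Stub1 call against CON was lost without CON 2, 3, or 4 or MAL-BG 2 or 3, in a fit of these groups alone (edgeR adjusted p = 0.0591), and, at 0.575, with the offsets. Of 14 genes of the cytosolic chaperonin TRiC and of prefoldin, which hands it actin and tubulin, Pfdn4 was higher (0.64 and 0.65), and the list had a median of 0.26 in both comparisons. With the offsets Pfdn4 was at 0.21 and 0.26 and was not called (edgeR adjusted p = 0.255 and 0.125), and without MAL 3 or 5 it fell just under the fold change threshold against MAL. Of 14 mitochondrial chaperones and proteases, edgeR and DESeq2 called 0, with 2 at an unadjusted p under 0.05 in each comparison (edgeR). Hspa9, the mitochondrial HSP70, was at 0.04 and 0.06 (edgeR adjusted p = 0.827 and 0.655).

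**Figure D5:**
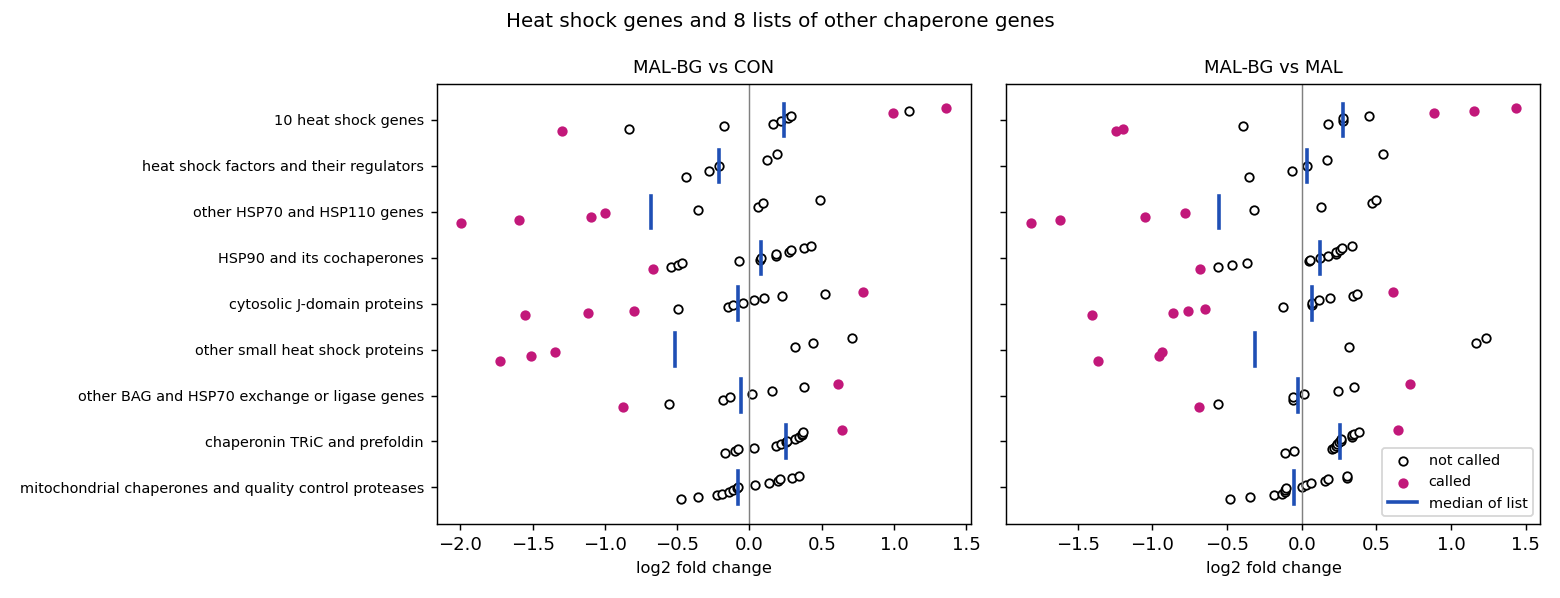
Log2 fold changes (x axis) of the 10 heat shock genes and of the 80 genes in 8 chaperone lists (rows), with filled points for DEGs and a bar at the median of each list. Among the 8 lists, calls on the lower side are most numerous in the HSP70 and HSP110, J-domain, and small heat shock protein rows. The J-domain share against CON is near that of all genes, and 0 genes are called in the rows of heat shock factors and of mitochondrial chaperones.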

How the data were processed

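The samples were CD11b+ cell libraries from 7 MAL-BG, 5 MAL, and 4 CON mice. The authors aligned stranded paired reads to GRCm38 with STAR, counted reads on genes by HTSeq (version 2.5 in the submitters' processing notes), and deposited raw counts. The counting mode, strand option, and annotation are not given in the sources used here. Libraries were assigned to groups by the names of the table's columns. Their running numbers match no sample title and only name a library, and no label gives a batch, so the batch term of the study's model was left out.

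A gene needed more than 10 counts in 4 or more libraries to be tested. The test was 1 fit of the 3 groups with edgeR 4.0.16 in R 4.3.3 (quasi-likelihood test, TMM scaling, Benjamini-Hochberg adjustment over all 14565 genes). DESeq2 1.42.0 was an alternative. CPM are counts relative to the scaled library sizes, and their log2 used a prior count of 2. Ratios used raw counts and two-sided exact permutation tests of mean log2 ratios. Within-group correlations were tested by permuting libraries within groups. The steps were tested on simulated data. Total counts were 10312703 to 18705202 per library, and precision is given as SD over mice or standard error. Genes with few counts, such as Hspa1l (0.108 CPM in its lowest MAL-BG library), also carry counting noise.

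Named chaperones were, of each list, up to 3 genes called in both MAL-BG comparisons with the largest change against CON, plus Hsf1, Hsp90ab1, and Hspa9. Members, lists, and markers were chosen with earlier results of these data known. Of 13 marker lists, those not described above were called as follows against CON: of neuron 0 higher and 9 lower of 10, oligodendrocyte 3 and 1 of 10, endothelium 2 and 1 of 10, ependyma 0 and 5 of 6, monocyte 0 and 2 of 8, border macrophage 0 and 1 of 8, lymphocyte 2 and 0 of 5, and erythroid 1 and 0 of 1 tested. Transcripts came from GENCODE M21 and promoters from RefSeq. Alternatives were other tests, scalings, filters, and fits, thinning, and single libraries left out.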

Additional observations from a re-analysis of the deposited data

Results flagged for a closer look

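Among 42 sets of library values tested (10 genes and 4 ratios in 3 groups), 4 held a library far from the others of its group by Dixon's criterion, which chance alone meets in about 1 of 20 sets. Hsph1 in CON 1 stood at 7.15 log2 CPM, with the next CON library at 6.26. Hsph1 in MAL-BG 6 stood at 6.08, with the next MAL-BG library at 5.26. Hspe1 in MAL-BG 7 stood at 6.14, with the next at 5.83, and Bag3 in CON 3 stood below its group at 5.15, with the next at 5.42. CON 1 was also the highest CON library in Hspa1a, Hspa1b, Hspa8, and Dnajb1, and MAL-BG 6 the highest MAL-BG library in those 4 genes. The cause of these high levels was not tested.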

How the results depend on the processing

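No paired analysis was possible because the numbers of the columns match no label and mark no pair of mice. The study's code has a batch term, which was not fitted here because no label gives the batch of a library, so the part of batch in these results was not tested. At 4 CON libraries, a single mouse moved the HSP70 calls, as given with each gene. Other settings and single libraries left out gave 2 to 4 heat shock genes called against CON and 3 to 7 against MAL. For chaperone genes, single libraries left out gave 14 to 18 against CON and 8 to 19 against MAL, the lowest without MAL replicate 3. Without the fold change threshold, 34 and 34 chaperone genes were called.

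Scaling to microglia markers moved the median of all genes to -0.88 against CON and -0.77 against MAL, and the share of DEGs that were higher from 34.4% to 0.714% and from 33.4% to 0.922%, so values under it are to be read against that shift. It called 56 and 45 chaperone genes and 4 and 3 heat shock genes, all lower, and Hsph1 stayed lower (-2.10 and -2.07). Hspa1a was at 0.33 and 0.39, Hspa1b at 0.59 and 0.66, Hsp90aa1 at 0.17 and 0.14, and Stub1 against MAL at 0.044, above the median of all genes and not called. The calls of these genes under TMM scaling were thus lost. Signs turned against CON in Hspb1 (-0.64), Hspd1 (-0.57), Hspe1 (-0.53), Bag3 (-0.69), Stub1 (-0.18), Pfdn4 (-0.20), Hsp90ab1 (-0.56), and Hspa9 (-0.81), and against MAL in Hspb1 (-0.31), Hspd1 (-0.49), Hspe1 (-0.46), Bag3 (-0.58), Pfdn4 (-0.066), Hsp90ab1 (-0.52), and Hspa9 (-0.67). Hspe1 in MAL versus CON turned to -0.079. With offsets for length and GC content, added after seeing the data, Hspe1 was at -0.075 and -0.087, Hspa9 at -0.055 against CON, and Hspa1a and Bag3 in MAL versus CON at 0.020 and 0.0066. Hspd1 in MAL versus CON was 0.00088 with upper-quartile scaling, and Hspd1 and Bag3 were 0.0091 and 0.0047 in a fit of these groups alone. The offsets also ended both calls of Dnajc13, Tsc1, and Pfdn4 and that of Stub1 against CON, as given with these genes.

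With medians, the ratio of Hspa1a plus Hspa1b to Hspa8 differed by 1.83 and 1.53 and no longer passed, and by 0.31 in MAL versus CON. Hspa1b over Hspa1a was then at -0.030 in MAL versus CON, and Hspe1 over Hspd1 at 0.061 against MAL and -0.039 in MAL versus CON. Leaving out single libraries, the ratio to Hspa8 ranged from 1.29 to 1.98 against CON, short of the threshold without any 1 CON library, where fewer splits exist, and from -0.32 to 0.37 in MAL versus CON. Hsp90aa1 over Hsp90ab1 ranged from 0.50 to 0.72 and from 0.44 to 0.66, and passed without MAL-BG 1 or 7. Hspa1b over Hspa1a ranged from -0.054 to 0.11 in MAL versus CON. Hspe1 over Hspd1 ranged from -0.019 to 0.062 against CON, -0.049 to 0.091 against MAL, and -0.075 to 0.065 in MAL versus CON. Hspa9 against CON ranged from -0.059 to 0.089. In MAL versus CON, Hspa1a ranged from -0.32 to 0.62, Hspa1b from -0.37 to 0.64, Hsph1 from -0.17 to 0.23, Hspd1 from -0.056 to 0.026, Hspe1 from -0.050 to 0.060, and Bag3 from -0.086 to 0.041. The cause of these turns was not tested.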

Other observations

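Among 11276 genes with a mean of at least 5 CPM, the gene whose libraries followed Hspa1a most closely within the groups, apart from its twin Hspa1b, was Hmox1, with r = 0.957 and rho = 0.962 over 16 libraries. Hmox1 encodes heme oxygenase 1, a stress-induced enzyme that breaks down heme. It was chosen as the closest of all genes, so no p is given. Tbc1d2b (r = 0.903), Gm6277 (r = 0.902), Zfp157 (r = 0.902), and Zfp592 (r = 0.900) came next. Hmox1 was at 85.1 ± 29.0 CPM (SD, n = 7) in MAL-BG, against 68.8 ± 31.9 (SD, n = 4) in CON and 76.6 ± 21.2 (SD, n = 5) in MAL. It was not called against CON (log2 fold change 0.31, edgeR adjusted p = 0.402) or against MAL (0.15, edgeR adjusted p = 0.664), unlike Hspa1a against MAL, a contrast between the genes that was not tested.

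Within libraries, counts of Hsp90aa1 were 2.59 to 4.31 times those of Hsph1 in CON, 3.19 to 5.89 times in MAL, and 9.69 to 30.8 times in MAL-BG. Counts of Hspa8 were 3.14 to 3.82 times those of Dnajb1 in CON, 2.85 to 3.94 times in MAL, and 3.87 to 8.28 times in MAL-BG. These ratios were chosen after their values were seen.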
